A study of Mus musculus with 3 samples.

Results

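Translation factors are the proteins that start and run protein synthesis on the ribosome, and their transcripts were described here in 3 sorted populations of mouse bone marrow. The members were all rows of the table whose gene name begins with Eif1 to Eif6, Eef1 or Eef2, without the interferon-inducible kinase gene Eif2ak2. This gave 66 genes of 23393 rows used. Of these, 62 reached a mean of 50 across the libraries and entered the ratios, and 4 were listed at 0 in all libraries (Eif3j1, Eif3j2, Eif4e1b and Eef1a2). The name rule also took in Eif2c1, Eif2c2, Eif2c3 and Eif2c4, which are older symbols of the Argonaute genes Ago1, Ago2, Ago3 and Ago4. Argonautes carry small RNAs and are not initiation factors, so they are described apart, and 58 translation genes were left past the filter without them.

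All cells came from C57BL/6 mice and were gated by flow cytometry within LSK marrow, which holds the stem cells and early progenitors of the marrow. GFP+ HSCs and GFP- HSCs were CD48- CD150+ cells with the Map17-GFP reporter on or off, and MPPs, the multipotent progenitors downstream of stem cells, were CD48+ CD150- and GFP-. Each population had 1 library, so there is no replicate spread to judge a difference by, no test was made, and every ratio compares libraries. The sources used here give neither the age and sex of the mice nor the number pooled, and the reporter is known only by its name.

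In eukaryotes, eIF2 brings the initiator tRNA to the small ribosomal subunit, which eIF3, eIF1 and eIF1A hold open for scanning, while the eIF4 factors bind the capped end of the mRNA. Stress kinases that phosphorylate eIF2, and proteins that sequester the cap-binding factor eIF4E, slow initiation, and eEF1 and eEF2 then carry the ribosome along the coding sequence. Adult HSCs are known for a low rate of protein synthesis, lower than that of the progenitors below them.

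The measured quantity was the authors' normalized count per gene, called its level. The levels of a library summed to 25311805 in GFP+ HSCs, 25375047 in GFP- HSCs and 26689660 in MPPs after the authors' scaling, and the sequencing depth is unknown. The sort genes went with the gates: Slamf1, which encodes CD150, stood at 2219 in GFP+ HSCs, 2144 in GFP- HSCs and 17 in MPPs, and Cd48 at 64 in GFP+ HSCs, 168 in GFP- HSCs and 7744 in MPPs. Pdzk1ip1, the gene of Map17, stood at 5659 in GFP+ HSCs, 3673 in GFP- HSCs and 290 in MPPs. Among genes of other cell types, the 12 neutrophil markers summed to 4651 in GFP+ HSCs, 3812 in GFP- HSCs and 4653 in MPPs. None was at 0 in any library. Of the 8 past the filter, 7 were higher in GFP+ than in GFP- HSCs, against 51.7% of all genes. Padi4 made up most of these sums, and the other 11 summed to 1818 in GFP+ HSCs, 853 in GFP- HSCs and 854 in MPPs. The 10 erythroblast markers summed to 1207 in GFP+ HSCs, 1714 in GFP- HSCs and 920 in MPPs, with the 4 haemoglobin genes at 0 throughout. The 8 B cell markers summed to 905 in GFP+ HSCs, 775 in GFP- HSCs and 1414 in MPPs, and Ms4a1, Pax5 and Blk were at 0 in both HSC libraries. The 8 T and NK cell markers summed to 905 in GFP+ HSCs, 1610 in GFP- HSCs and 8314 in MPPs, with Cd3e, Cd3g and Ncr1 at 0 in both HSC libraries. The 8 megakaryocyte and platelet markers summed to 47855 in GFP+ HSCs, 41840 in GFP- HSCs and 4757 in MPPs. The part of these cells in the results below was not tested.

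Start sites are shown for 5 chosen members. These are both eIF4A helicase genes, which went opposite ways, the elongation factor gene Eef1b2, and 2 eIF3 genes. Of the 2 eIF3 genes, Eif3f begins with the pyrimidine run typical of translation-apparatus mRNAs. The stretches come from RefSeq (GRCm38.p6), 5′ to 3′ on the gene's strand, with 100 bases before the annotated start and 20 from it on. Capitals mark the CCAAT box (CCAAT), the ETS core (CCGGAAGT), the E-box (CACGTG) and the TATA box (TATAAA), each searched on both strands, and in Eif3f also the pyrimidine run at the start.
Eif4a1: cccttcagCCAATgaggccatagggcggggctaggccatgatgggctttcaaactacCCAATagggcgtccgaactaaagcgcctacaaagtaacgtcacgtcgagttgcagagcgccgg
Eif4a2: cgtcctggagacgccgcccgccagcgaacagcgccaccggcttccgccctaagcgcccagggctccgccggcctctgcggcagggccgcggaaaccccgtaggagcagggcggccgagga
Eef1b2: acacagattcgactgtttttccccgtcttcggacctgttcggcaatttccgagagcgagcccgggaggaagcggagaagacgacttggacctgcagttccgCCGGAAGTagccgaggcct
Eif3f: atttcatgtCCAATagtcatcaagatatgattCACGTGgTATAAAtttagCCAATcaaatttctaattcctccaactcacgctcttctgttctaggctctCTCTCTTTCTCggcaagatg
Eif3l: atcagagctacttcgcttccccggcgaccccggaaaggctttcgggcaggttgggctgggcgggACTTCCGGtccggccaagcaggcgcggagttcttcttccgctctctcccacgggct

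The stretches lie at chr11:69672404-69672523 (minus strand) for Eif4a1, chr16:23107368-23107487 (plus) for Eif4a2, chr1:63176731-63176850 (plus) for Eef1b2, chr7:108934315-108934434 (plus) for Eif3f and chr15:79075123-79075242 (plus) for Eif3l. RefSeq windows of 300 bases, 250 before a start and 50 from it on, were found for 51 of the 66 members, and for 48 of the translation genes without Argonautes. An E-box, the site bound by Myc and related factors, was in the window of 12 of these 48 genes (25%), against 12% of the 9619 genes past the filter that had a window and 8.09% of all 27025 genes with one. It was in 9.38% of 64 cytosolic ribosomal protein genes. The ETS core was in 9 of the 48 (18.8%), against 9.49% of genes past the filter and 4.31% of all genes, and in 18.8% of ribosomal protein genes. The CCAAT box was in 16 (33.3%), against 43.1% of genes past the filter and 41.1% of all, and the TATA box in 5 (10.4%), against 8.39% of genes past the filter and 15.7% of all. A C at the annotated start followed by at least 4 pyrimidines, the start of a terminal oligopyrimidine tract, was found in 2 members, Eif3f and Eif2s3x (4.17%), in 20.3% of ribosomal protein genes, in 2.92% of genes past the filter and in 3.01% of all. None of the 4 letter strings contains another. A gene with several windows counted once, and a match is a description of the letters only.

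Translation factor transcripts were lower in both HSC libraries than in MPPs, and slightly lower in GFP+ than in GFP- HSCs. All 66 members together held 1.25% of the summed levels in GFP+ HSCs, 1.31% in GFP- HSCs and 1.48% in MPPs. Between GFP+ and GFP- HSCs, 44 of 62 members past the filter were lower in GFP+ HSCs and 18 were higher, against 47.8% and 51.7% of all genes, and the median log2 ratio was -0.07, against 0.01 over all 11951 genes. Between GFP- HSCs and MPPs, 49 of 62 were lower in GFP- HSCs and 13 were higher, against 50.6% and 49.2% of all genes, with a median of -0.22, against -0.01. Between GFP+ HSCs and MPPs, 49 of 62 were lower in GFP+ HSCs and 13 were higher, against 49.2% and 50.7% of all genes, with a median of -0.32, against 0.01. Ratios were taken as log2 of (level + 5). These 3 comparisons share libraries and are given side by side, and fewer cells of a type and less RNA per cell cannot be told apart in such samples.

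The differences were small. Between the HSC fractions, 0 of 62 members were 2-fold apart, where 0.41% of all genes were 2-fold higher and 0.87% 2-fold lower in GFP+ HSCs. Only Eif4ebp2 passed 1.5-fold there, lower in GFP+ HSCs, where 3.0% of all genes were lower and 2.44% higher by that much. Between GFP- HSCs and MPPs, 3 members were 1.5-fold higher and 3 were 1.5-fold lower in GFP- HSCs, against 19.3% and 13.4% of all genes. At 2-fold, 1 member was higher and 0 were lower in GFP- HSCs, against 11.6% and 5.53% of all genes. Between GFP+ HSCs and MPPs, 4 members were 1.5-fold higher and 13 were 1.5-fold lower, against 22.3% and 17.9%, and 1 was 2-fold higher and 1 2-fold lower, against 13.7% and 8.6%. After rescaling to equal totals or upper quartiles, 8 members were 1.5-fold lower in that comparison, 4 were 1.5-fold higher, 3 were 2-fold higher and 0 were 2-fold lower. The shares of all genes were not counted under these scalings, so these counts stand without one. The median of all genes there moved from 0.01 to 0.09 with equal totals and to 0.08 with equal upper quartiles. The middle of the members ran from -0.39 to -0.05 (quartiles of the log2 ratio of GFP- HSCs to MPPs), against -0.34 to 0.41 for all genes.

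**Figure D1:**
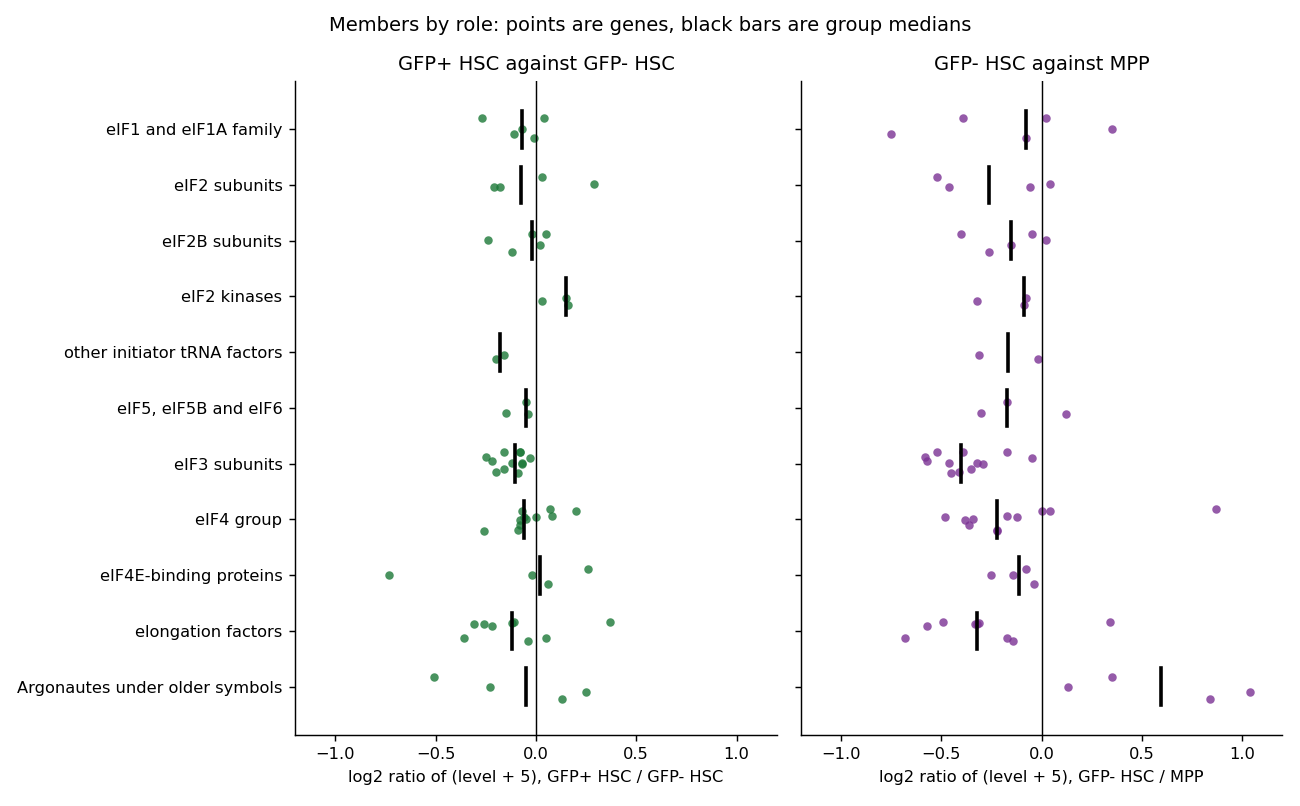
Log2 ratios of (level + 5) for the 62 members with a mean level of at least 50, by role (rows), for GFP+ against GFP- HSCs (left) and GFP- HSCs against MPPs (right). Each point is a gene, placed with vertical jitter, and black bars are group medians; all 12 eIF3 subunits lie below 0 in both panels, while the 4 Argonautes lie above 0 in the right panel.

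Subunit transcripts of eIF3, the largest initiation factor and the scaffold of scanning ribosomes, were lower in both HSC libraries than in MPPs. All 12 subunits past the filter were lower in GFP+ than in GFP- HSCs, against 47.8% of all genes, with a median log2 ratio of -0.10. All 12 also stood below MPPs in the GFP- HSC library, against 50.6% of all genes, with a median of -0.40. After rescaling to equal totals or upper quartiles Eif3d alone turned to the other side in the second comparison, leaving 11. The summed level of the subunits was 53932 in GFP+ HSCs, 58273 in GFP- HSCs and 75044 in MPPs. Eif3m (chromosome 2, 104999656 to 105017027, GRCm38) had the lowest ratio of the complex, at 1799 in GFP+ HSCs, 2147 in GFP- HSCs and 3223 in MPPs, and shares 40% of its words with other annotated genes, chiefly Gm7658. Next came Eif3l (chromosome 15, 79075223 to 79094400), whose start site is shown above, at 3746 in GFP+ HSCs, 4360 in GFP- HSCs and 6469 in MPPs. Both genes encode subunits of the PCI and MPN domain core of the mammalian complex, and in both the MPP library stood well above the HSC libraries, with Eif3l 1.73-fold and Eif3m 1.79-fold lower in GFP+ HSCs than in MPPs.

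Eif3a, Eif3b and Eif3c, which encode the large subunits shared with yeast, differed by unequal amounts. Eif3b had the highest level, at 10069 in GFP+ HSCs, 10621 in GFP- HSCs and 15239 in MPPs (1.51-fold lower in GFP+ HSCs than in MPPs). Eif3a stood at 7237 in GFP+ HSCs, 7584 in GFP- HSCs and 9282 in MPPs, and Eif3c at 6297 in GFP+ HSCs, 7055 in GFP- HSCs and 7913 in MPPs. The step between HSCs and MPPs was thus steeper for Eif3b than for its partners. Eif3g, an RNA-binding subunit that joins Eif3b and Eif3i, stood at 3005 in GFP+ HSCs, 3463 in GFP- HSCs and 4617 in MPPs (1.54-fold lower in GFP+ HSCs than in MPPs). Eif3i stood at 2998 in GFP+ HSCs, 3249 in GFP- HSCs and 4463 in MPPs. At the other end, Eif3d, which can itself bind the cap of some mRNAs, was nearly level, at 6871 in GFP+ HSCs, 6996 in GFP- HSCs and 7254 in MPPs. The remaining subunits Eif3e, Eif3f, Eif3h and Eif3k had log2 ratios of GFP- HSCs to MPPs of -0.32, -0.35, -0.39 and -0.45. Eif3j1 and Eif3j2, near-identical copies of the loosely bound subunit, were listed at 0 in all libraries. They share 54.8% and 91.8% of their 50-base words with other annotated genes, each with the other above all, so a listed 0 need not mean absence.

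**Figure D2:**
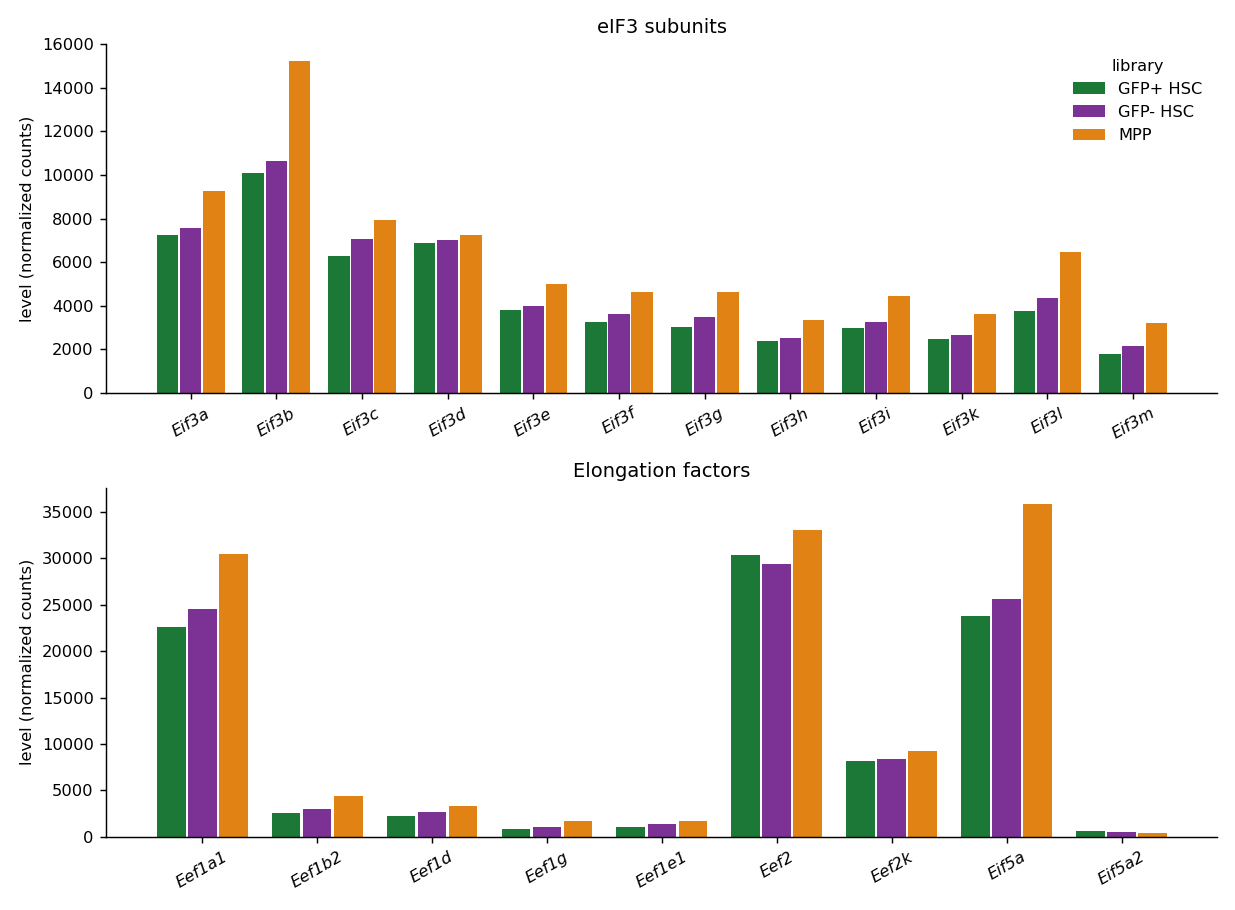
Levels (normalized counts, linear axis from 0) of the 12 eIF3 subunits past the filter (top) and of the 9 elongation factor genes past the filter (bottom) in GFP+ HSCs, GFP- HSCs and MPPs, with 1 bar per library and no replicates. The MPP bar is the highest for every eIF3 subunit and for all elongation genes but Eif5a2.

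Transcripts of elongation factors were lower in HSCs in most cases too. Of 9 genes past the filter, 7 were lower in GFP+ than in GFP- HSCs, against 47.8% of all genes, with a median of -0.12. Set against MPPs, 8 of the 9 were lower in GFP- HSCs, against 50.6% of all genes, with a median of -0.32. Their summed level was 92042 in GFP+ HSCs (0.364% of the library), 96235 in GFP- HSCs (0.379%) and 119974 in MPPs (0.45%). The genes of the exchange complex that recharges eEF1A, Eef1b2, Eef1d and Eef1g, were farther apart than eEF1A itself. Eef1g (chromosome 19, 8967041 to 8978180) stood at 819 in GFP+ HSCs, 1056 in GFP- HSCs and 1693 in MPPs, and its 2.07-fold lower level in GFP+ HSCs than in MPPs was the only drop of 2-fold among the members, and was under 2-fold after rescaling to equal totals or upper quartiles (log2 ratio -0.97 with each). It shares 64.3% of its 50-base words with other annotated genes, chiefly Gm4366, so its level depends on how such reads were counted. Eef1b2, whose start site holds an ETS core, stood at 2528 in GFP+ HSCs, 2944 in GFP- HSCs and 4368 in MPPs. Eef1d stood at 2194 in GFP+ HSCs, 2630 in GFP- HSCs and 3314 in MPPs. In both of these genes, which share under 10% of their words (5.98% and 5.84%), GFP+ HSCs were lowest and MPPs highest. Eef1e1, counted in this group as the kinase gene Eef2k was, encodes a scaffold protein of the aminoacyl-tRNA synthetase complex. Eef1e1 stood at 1069 in GFP+ HSCs, 1323 in GFP- HSCs and 1652 in MPPs.

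Eef1a1, which delivers tRNAs to the ribosome, stood at 22553 in GFP+ HSCs, 24525 in GFP- HSCs and 30478 in MPPs. It shares 60.6% of its words with other annotated genes, which include its many processed copies. Eef1a2, its relative in muscle and neurons, was listed at 0 throughout. Eef2, the translocation factor, was nearly level between the HSC fractions, at 30397 in GFP+ HSCs, 29348 in GFP- HSCs and 33048 in MPPs. Its inhibitory kinase gene Eef2k stood at 8137 in GFP+ HSCs, 8363 in GFP- HSCs and 9221 in MPPs. Neither member of this pair was 1.5-fold apart in any comparison, against the shares of all genes given above.

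Per kilobase of its longest coding transcript, Eif5a had the highest mean level of all members, 19759, followed by Eef1a1 at 14410, Eef2 at 10013, Eif4g2 at 6058 and Eif1 at 5080. Eef1a1 shares 60.6% of its words with other annotated genes and Eif5a 7.13%, so their order depends on how such reads were counted. eIF5A, which carries the amino acid hypusine and helps ribosomes past difficult peptide bonds, is encoded by a pair of genes that went opposite ways. Eif5a stood at 23753 in GFP+ HSCs, 25589 in GFP- HSCs and 35840 in MPPs, 1.51-fold lower in GFP+ HSCs than in MPPs. Eif5a2 (chromosome 3, 28781032 to 28798846) stood at 592 in GFP+ HSCs, 457 in GFP- HSCs and 360 in MPPs, so that GFP+ HSCs stood 1.64-fold above MPPs. The ratio of Eif5a to Eif5a2 per kilobase was 140 in GFP+ HSCs, 196 in GFP- HSCs and 348 in MPPs, so Eif5a made up nearly all of the pair in every library. Of the enzymes that make hypusine, Dhps stood at 440 in GFP+ HSCs, 537 in GFP- HSCs and 730 in MPPs, and Dohh at 947 in GFP+ HSCs, 881 in GFP- HSCs and 1288 in MPPs.

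The eIF4 factors bind and unwind the capped end of the mRNA, and here the helicase genes differed between HSCs and MPPs in opposite directions. Eif4a2 (chromosome 16, 23107468 to 23114132) stood at 8342 in GFP+ HSCs, 7946 in GFP- HSCs and 4346 in MPPs. Eif4a1 (chromosome 11, 69666936 to 69672423) stood at 2393 in GFP+ HSCs, 2385 in GFP- HSCs and 3320 in MPPs. Set against MPPs, Eif4a2 was thus 1.83-fold higher and Eif4a1 1.39-fold lower in GFP- HSCs, while both were nearly level between the HSC fractions. Per kilobase of transcript, Eif4a2 made up 69.5% of the pair in GFP+ HSCs, 68.6% in GFP- HSCs and 46.2% in MPPs. Per kilobase of coding sequence it made up 77.6% in GFP+ HSCs, 76.8% in GFP- HSCs and 56.6% in MPPs, so which gene led in MPPs depends on the length used. Eif4a1 shares 65.3% of its words with other annotated genes, chiefly the pseudogene Eif4a-ps4, against 12.7% for Eif4a2, so the share of each is uncertain. Apart from the Argonautes, Eif4a2 was the only member 1.5-fold above MPPs in GFP- HSCs. The start sites of the pair differ too, with 2 CCAAT boxes in the 100 bases before the start of Eif4a1 and none of the searched strings in the stretch of Eif4a2. Eif4a3, the helicase of the exon junction complex, stood at 4018 in GFP+ HSCs, 4828 in GFP- HSCs and 5628 in MPPs.

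Transcripts of the partners of the helicase were lower in HSCs. Eif4b stood at 7250 in GFP+ HSCs, 7482 in GFP- HSCs and 9456 in MPPs, and Eif4h at 11504 in GFP+ HSCs, 12155 in GFP- HSCs and 15770 in MPPs. Both stimulate the helicase, and both were lowest in GFP+ HSCs and highest in MPPs. Among the scaffold proteins, Eif4g2, which encodes a shorter relative that lacks the eIF4E site, had the highest level of all members, at 42518 in GFP+ HSCs, 45054 in GFP- HSCs and 57725 in MPPs. Eif4g1 stood at 13384 in GFP+ HSCs, 13947 in GFP- HSCs and 15200 in MPPs, and Eif4g3 at 4869 in GFP+ HSCs, 5106 in GFP- HSCs and 5098 in MPPs. The scaffold genes therefore differed in their step between HSCs and MPPs, from a log2 ratio of -0.36 for Eif4g2 to 0.00 for Eif4g3 (GFP- HSCs against MPPs). Eif4e, which encodes the cap-binding protein, stood at 2218 in GFP+ HSCs, 2362 in GFP- HSCs and 2750 in MPPs. Its relatives Eif4e2, which binds the cap without recruiting eIF4G, and Eif4e3 stood at 3106 and 1624 in GFP+ HSCs, 2947 and 1410 in GFP- HSCs, and 3324 and 1375 in MPPs. Eif4e3 was the member of this family that was highest in GFP+ HSCs, and the germline gene Eif4e1b was listed at 0 throughout.

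The eIF4E-binding proteins block the joining of eIF4E to eIF4G until mTORC1 phosphorylates them, and among their genes Eif4ebp2 was lower in GFP+ HSCs. Eif4ebp2 (chromosome 10, 61428491 to 61452790) stood at 753 in GFP+ HSCs, 1253 in GFP- HSCs and 1489 in MPPs. It was 1.66-fold lower in GFP+ than in GFP- HSCs, the largest difference of any member between the HSC fractions, and 1.98-fold lower than in MPPs. Eif4ebp2 shared 0 of its 50-base words with another annotated gene. Eif4ebp1, the more abundant gene, was nearly level, at 1497 in GFP+ HSCs, 1519 in GFP- HSCs and 1671 in MPPs. Eif4ebp3 stood at 194 in GFP+ HSCs, 161 in GFP- HSCs and 171 in MPPs, and 65.5% of its words are shared, so its share of the family is uncertain. Per kilobase, Eif4ebp2 made up 11.4% of the 3 genes in GFP+ HSCs, 18.1% in GFP- HSCs and 19.4% in MPPs, and per kilobase of coding sequence 29.9% in GFP+ HSCs, 41.7% in GFP- HSCs and 43.7% in MPPs. The level of Eif4e per kilobase was 0.39 times the sum of the 3 binding protein genes in GFP+ HSCs, 0.396 times in GFP- HSCs and 0.416 times in MPPs. Per kilobase of coding sequence the ratio was 0.487 in GFP+ HSCs, 0.435 in GFP- HSCs and 0.446 in MPPs, so its order over the libraries depends on the length used. Eif4enif1, which carries eIF4E into the nucleus, stood at 3354 in GFP+ HSCs, 3208 in GFP- HSCs and 3300 in MPPs.

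**Figure D3:**
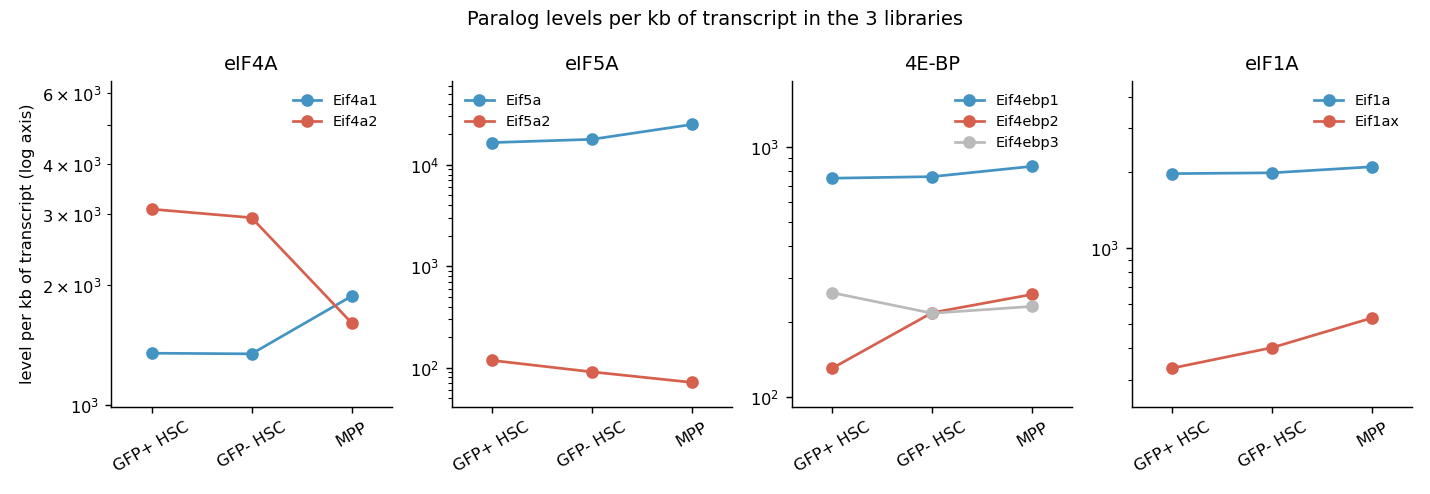
Levels per kilobase of the longest coding transcript (log axis) of the eIF4A, eIF5A, 4E-BP and eIF1A genes in GFP+ HSCs, GFP- HSCs and MPPs, with 1 point per library. The eIF4A lines cross between GFP- HSCs and MPPs on this length scale but not per coding length, Eif5a and Eif5a2 run in opposite directions, and Eif4ebp2 drops in GFP+ HSCs.

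Factors that choose the start codon were mixed. Eif1, the fidelity factor, was higher in HSCs, at 7008 in GFP+ HSCs, 7358 in GFP- HSCs and 5782 in MPPs, whereas Eif1b was level, at 1933 in GFP+ HSCs, 1876 in GFP- HSCs and 1850 in MPPs. Eif1 shares 31.6% of its words with other annotated genes. Of the eIF1A genes, Eif1ax (chromosome X, 159372178 to 159389621) stood at 1723 in GFP+ HSCs, 2078 in GFP- HSCs and 2729 in MPPs, 1.58-fold lower in GFP+ HSCs than in MPPs. Eif1a was level, at 5666 in GFP+ HSCs, 5711 in GFP- HSCs and 6033 in MPPs, so Eif1ax was 14.4% of that pair per kilobase in GFP+ HSCs, 16.8% in GFP- HSCs and 20% in MPPs, and 34.9% in GFP+ HSCs, 39.1% in GFP- HSCs and 44.4% in MPPs per kilobase of coding sequence. Eif1ad (chromosome 19, 5366813 to 5371518), whose product has a domain like that of eIF1A, had the lowest ratio of all members between GFP- HSCs and MPPs, at 1829 in GFP+ HSCs, 1972 in GFP- HSCs and 3319 in MPPs. Part of its transcript, 15.1% of the words, is shared with the neighbouring gene Banf1 above all. Eif5, which makes eIF2 hydrolyse GTP at the start codon, stood at 14543 in GFP+ HSCs, 14942 in GFP- HSCs and 13724 in MPPs. Eif5b, which joins the subunits, and Eif6, which keeps them apart, had log2 ratios of GFP- HSCs to MPPs of -0.17 and -0.30.

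The eIF2 subunit genes for alpha and beta were lower in HSCs than in MPPs. Eif2s1, the alpha subunit that stress kinases phosphorylate, stood at 2857 in GFP+ HSCs, 3308 in GFP- HSCs and 4548 in MPPs, 1.59-fold lower in GFP+ HSCs than in MPPs. Eif2s2 stood at 797 in GFP+ HSCs, 779 in GFP- HSCs and 1121 in MPPs. The gamma subunit has a gene on each sex chromosome. The Y-linked Eif2s3y stood at 1712 in GFP+ HSCs, 1404 in GFP- HSCs and 1370 in MPPs, and the X-linked Eif2s3x at 91 in GFP+ HSCs, 104 in GFP- HSCs and 109 in MPPs. Eif2s3x thus lay at the bottom of the members past the filter, and it shares 36.2% of its words with other annotated genes, chiefly Gm2223. Other sex-linked transcripts also differed between the libraries: Ddx3y stood at 3251 in GFP+ HSCs, 2475 in GFP- HSCs and 2490 in MPPs, and Xist, which is expressed from the inactive X chromosome, at 3087 in GFP+ HSCs, 6137 in GFP- HSCs and 2262 in MPPs. The part of the sex of the mice in the level of Eif2s3y was not tested.

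The 5 subunits of eIF2B, which recharges eIF2 with GTP, had a median log2 ratio of -0.02 for GFP+ against GFP- HSCs and -0.15 for GFP- HSCs against MPPs. Eif2b5, the catalytic subunit, had the lowest ratio of these in the second comparison, at 2963 in GFP+ HSCs, 2862 in GFP- HSCs and 3766 in MPPs. Eif2b1, Eif2b2, Eif2b3 and Eif2b4 lay between -0.26 and 0.02 there. The 3 eIF2 kinase genes differed little. Eif2ak4, the sensor of uncharged tRNA, stood at 2309 in GFP+ HSCs, 2060 in GFP- HSCs and 2190 in MPPs, and Eif2ak3, the sensor of the endoplasmic reticulum, at 1017 in GFP+ HSCs, 917 in GFP- HSCs and 968 in MPPs. Eif2ak1, the haem-regulated kinase, stood at 2583 in GFP+ HSCs, 2527 in GFP- HSCs and 3147 in MPPs. None of the kinase genes was 1.5-fold apart in any comparison. Between the HSC fractions, 2.44% of all genes were 1.5-fold higher and 3.0% lower in GFP+ HSCs. Against MPPs the shares were 19.3% and 13.4% for GFP- HSCs, and 22.3% and 17.9% for GFP+ HSCs. Eif2a and Eif2d, which can deliver tRNA without eIF2, had log2 ratios of -0.16 and -0.20 for GFP+ against GFP- HSCs and of -0.31 and -0.02 for GFP- HSCs against MPPs.

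The 4 Argonautes under their older symbols were all higher in GFP- HSCs than in MPPs, against 49.2% of all genes. Their median log2 ratio was 0.59. Between GFP+ HSCs and MPPs 2 were higher and 2 lower, and between GFP+ and GFP- HSCs also 2 were higher and 2 lower, with medians of 0.43 and -0.05. Eif2c3 (Ago3, chromosome 4, 126326994 to 126431670) stood at 793 in GFP+ HSCs, 666 in GFP- HSCs and 322 in MPPs, and was the only gene of the name rule 2-fold or more above MPPs in either HSC library as deposited. After rescaling to equal totals or upper quartiles, Eif2c4 (log2 ratio 1.04 with each) and Eif4a2 (1.02 and 1.01) also passed 2-fold in GFP+ HSCs. Eif2c4 (Ago4) stood at 823 in GFP+ HSCs, 750 in GFP- HSCs and 418 in MPPs. Eif2c1 (Ago1) stood at 618 in GFP+ HSCs, 884 in GFP- HSCs and 694 in MPPs, and Eif2c2 (Ago2), the slicing Argonaute, at 1880 in GFP+ HSCs, 2201 in GFP- HSCs and 2014 in MPPs. Ago1, Ago3 and Ago4 neighbour each other on chromosome 4, and Eif2c1 was highest in GFP- HSCs while Eif2c3 and Eif2c4 were highest in GFP+ HSCs. Without the 4 Argonautes, 49 of 58 translation genes stood below MPPs in GFP- HSCs, against 50.6% of all genes. Of the same 58, 42 were lower in GFP+ than in GFP- HSCs, against 47.8% of all genes.

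Other genes of protein synthesis were set beside the members. The 69 cytosolic ribosomal protein genes past the filter had medians of -0.19 for GFP+ against GFP- HSCs and -0.47 for GFP- HSCs against MPPs. Of these, 20 were 1.5-fold lower in GFP- HSCs than in MPPs, against 13.4% of all genes. Of the 22 genes for cytosolic aminoacyl-tRNA synthetases and their scaffold, 20 were lower in GFP+ than in GFP- HSCs, against 47.8% of all genes. In GFP- HSCs 21 were below MPPs, against 50.6% of all genes. Their medians were -0.08 and -0.34, with 0 genes 2-fold apart. Over all genes, 0.41% were 2-fold higher and 0.87% lower in GFP+ than in GFP- HSCs. Between GFP- HSCs and MPPs these shares were 11.6% and 5.53%. The most abundant of the synthetase genes, Vars, stood at 17682 in GFP+ HSCs, 18006 in GFP- HSCs and 22817 in MPPs. Of 8 genes for termination and recycling, 7 were lower in each of these comparisons, against the same 47.8% and 50.6%, with medians of -0.11 and -0.45. Pelo, which rescues stalled ribosomes, stood at 268 in GFP+ HSCs, 307 in GFP- HSCs and 572 in MPPs, and Abce1, the recycling factor, at 6934 in GFP+ HSCs, 7328 in GFP- HSCs and 9714 in MPPs. Gspt2 went the other way, at 483 in GFP+ HSCs, 409 in GFP- HSCs and 256 in MPPs, while its paralog Gspt1, the main release factor GTPase, stood at 5138 in GFP+ HSCs, 5534 in GFP- HSCs and 7628 in MPPs. The 22 cap and poly(A) cofactors had medians of -0.05 and -0.06, and the second turned positive after rescaling to equal totals (0.01) or upper quartiles (0.02). Ddx3x, an RNA helicase gene among them, stood at 12181 in GFP+ HSCs, 12528 in GFP- HSCs and 9417 in MPPs.

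The integrated stress response genes, which act on or downstream of eIF2 phosphorylation, were divided. Of 13 past the filter, 9 were higher and 4 lower in GFP- HSCs than in MPPs, against 49.2% and 50.6% of all genes. Their median was 0.35. Ppp1r15a, which recruits the phosphatase that reverses eIF2 phosphorylation, stood at 32305 in GFP+ HSCs, 28453 in GFP- HSCs and 13234 in MPPs. Trib3 stood at 1052 in GFP+ HSCs, 669 in GFP- HSCs and 146 in MPPs, Asns at 1050 in GFP+ HSCs, 1154 in GFP- HSCs and 574 in MPPs, and Impact, an inhibitor of Eif2ak4 activation, at 2618 in GFP+ HSCs, 2200 in GFP- HSCs and 1051 in MPPs. In GFP- HSCs these 4 were 2-fold or more above MPPs, against 11.6% of all genes. Phgdh, an enzyme of serine synthesis, was instead lower, at 1825 in GFP+ HSCs, 1881 in GFP- HSCs and 4007 in MPPs.

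**Figure D4:**
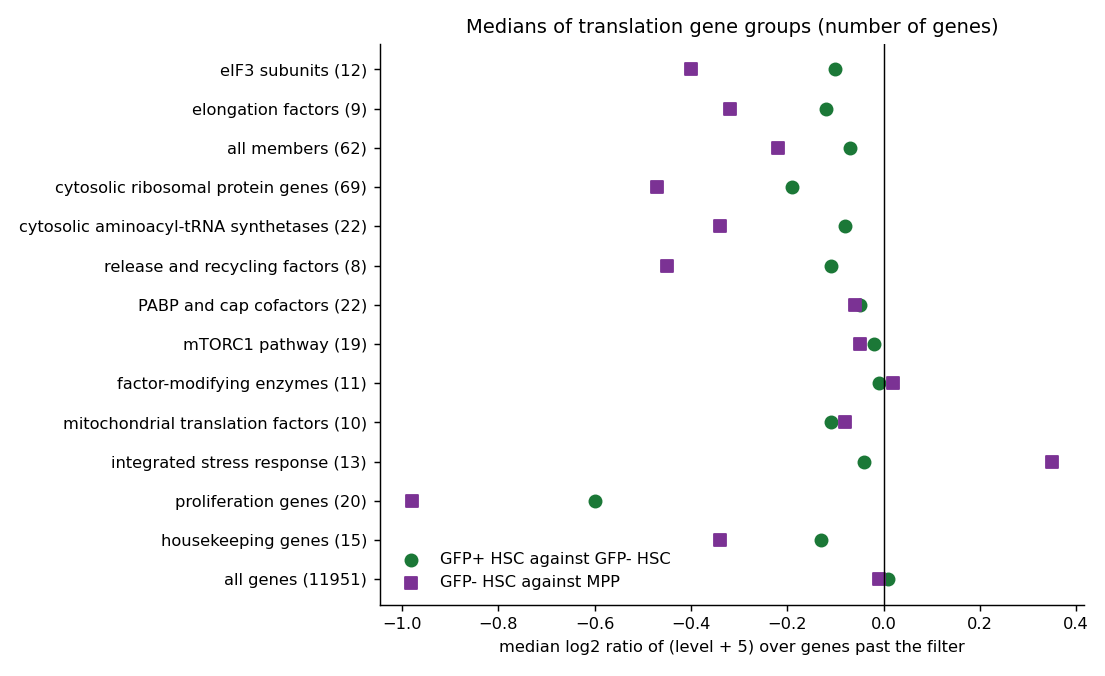
Median log2 ratio of (level + 5) of gene groups of protein synthesis, with proliferation, housekeeping and all genes beside them and the number of genes past the filter in brackets. Circles give GFP+ against GFP- HSCs and squares GFP- HSCs against MPPs; the members at -0.07 and -0.22 lie nearer to 0 than the ribosomal protein genes at -0.19 and -0.47 and the proliferation genes at -0.60 and -0.98.

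Proliferation and housekeeping genes were also lower in HSCs in most cases. All 20 proliferation genes were lower in GFP+ than in GFP- HSCs, against 47.8% of all genes, and in GFP- HSCs than in MPPs, against 50.6%. Their medians were -0.60 and -0.98, and their summed level was 74902 in GFP+ HSCs, 105436 in GFP- HSCs and 191547 in MPPs. The 15 housekeeping genes had medians of -0.13 and -0.34, with 13 and 12 of them lower, against the same shares of all genes. The median of the members was thus no farther from 0 than that of this list. The part of cycling cells in the results for translation factors was not tested. With equal totals the median of the members was -0.15 for GFP- HSCs against MPPs, and with equal upper quartiles it was -0.14. The median of all genes moved in the same direction, from -0.01 to 0.06 with equal totals and 0.07 with equal upper quartiles.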

How the data were processed

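RNA from 3 sorted populations was measured with 1 library each; per the labels' protocols, cDNA was made with a SMART-seq kit, which amplifies full-length cDNA and marks no strand. The submitters' processing notes name STAR, DESeq2 and mm10; their versions, the annotation and the counting tool were not given in the sources used. The authors deposited 1 table of normalized counts, held as whole numbers and treated as a score, since reads could not be recovered and the depth is unknown. Of 23420 rows, 27 with a date in place of a symbol were left out. Ratios used a pseudocount of 5 and the 11951 genes whose mean reached 50. With 1 library per population no test was made; members were counted as higher or lower, 1.5-fold and 2-fold apart, beside all genes. A planned count of genes moving the same way at both steps was not made, because the steps share a library. Members, lists, roles and the rule for named genes were chosen with earlier results of these data known; members past 1.5-fold, paralogs and the most abundant were named by that rule, and others to account for every member. Each gene took the length of its longest coding transcript in GENCODE M21, which 99.3% of genes past the filter had. Shared words are distinct 50-base words of that transcript found, on either strand, in transcripts of another annotated gene; the authors' treatment of reads that fit several genes is unknown. Coordinates and start windows are RefSeq's (GRCm38). The 2-fold calls were checked on simulated libraries, while the counts of signs and the 1.5-fold calls were not. Figures were drawn with matplotlib 3.10.9; pandas 2.3.3, numpy 2.4.6, statsmodels 0.14.6 and scipy 1.17.1 ran under Python 3.11.15.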

Additional observations from a re-analysis of the deposited data

How the results depend on the processing

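In all, 180 values were recomputed under 11 other settings, without the 10 most abundant genes and under other length scales. Of these, 163 stayed within the limits set (0.1 log2 for a median, 1.5 times for a count, 1.1 times for a share). Some of the 163 could not move. The lowest mean of a member past the filter was 101 and the other 4 were at 0. A minimum mean of 10 or no minimum therefore kept the same 62 members with the same values. Leaving out the Argonautes could not change the eIF3 counts. A change of sign could be seen only for the medians of the members, and none of those changed sign. The median of the members ran from -0.08 to -0.05 for GFP+ against GFP- HSCs, from -0.3 to -0.14 for GFP- HSCs against MPPs and from -0.39 to -0.22 for GFP+ HSCs against MPPs, over other pseudocounts, minimum means, scalings, removed trends and trimmed member lists. After a trend on length and GC was taken out of the ratios, 0 members were 2-fold apart between GFP- HSCs and MPPs and 1 between GFP+ HSCs and MPPs, against 1 and 2 as reported, and the median of all genes moved to -0.12 in both. Without the 4 Argonautes these counts were 0 and 1, and without the members that share over 20% of their words the second was 1, both settings chosen after seeing the data. Per coding length, Eif4a2 was 77.6% of its pair in GFP+ HSCs, 76.8% in GFP- HSCs and 56.6% in MPPs, and undivided levels gave 77.7% in GFP+ HSCs, 76.9% in GFP- HSCs and 56.7% in MPPs. Eif5a2 was 2.45% of its pair in GFP+ HSCs, 1.77% in GFP- HSCs and 1% in MPPs per coding length, and 2.43% in GFP+ HSCs, 1.75% in GFP- HSCs and 0.994% in MPPs undivided, against 0.707%, 0.508% and 0.286% for those libraries per transcript length. Rescaling to equal totals or upper quartiles turned the sign of up to 7 members (GFP- HSCs against MPPs), none with a log2 ratio beyond 0.08. It moved the median of all genes in that comparison to 0.06 and 0.07. Counts by direction after rescaling, the Eif4e ratio per coding length and the neutrophil sum without Padi4 were added after seeing the data. No paired analysis was possible because each population has 1 library. The depth is unknown, so no counting error could be given.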

Other observations

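Regulators around the factors are given here as values. Of 19 genes of the mTORC1 pathway past the filter, 8 were higher and 11 lower in GFP- HSCs than in MPPs. Over all genes these shares were 49.2% and 50.6%. The median of the 19 was -0.05 and turned to 0.02 after rescaling to equal totals. Between GFP- HSCs and MPPs, 11.6% of all genes were 2-fold higher and 5.53% 2-fold lower in GFP- HSCs. Of the 19, only Deptor, an inhibitor of mTOR, was 2-fold apart there, at 1460 in GFP+ HSCs, 1315 in GFP- HSCs and 646 in MPPs. Tsc2, a brake on mTORC1 and the most abundant of these genes, stood at 4386 in GFP+ HSCs, 3812 in GFP- HSCs and 4433 in MPPs. The enzymes that modify eIF5A, eEF1A and eEF2 had medians of -0.01 and 0.02 over 11 genes, with 0 genes 1.5-fold apart in the comparisons of neighbouring populations. Over all genes, 2.44% were higher and 3.0% lower by that much between the HSC fractions, and 19.3% and 13.4% between GFP- HSCs and MPPs. Between GFP+ HSCs and MPPs, 2 of the 11 were 1.5-fold lower in GFP+ HSCs and 0 higher, against 17.9% and 22.3% of all genes. The 10 mitochondrial translation factors had medians of -0.11 for GFP+ against GFP- HSCs and -0.08 for GFP- HSCs against MPPs, the second moving to 0.00 after rescaling to equal upper quartiles, and Guf1, an elongation factor of mitochondria, was higher in HSCs, at 3439 in GFP+ HSCs, 3442 in GFP- HSCs and 2529 in MPPs. Paip2b, which restrains the poly(A)-binding protein, was lower in GFP+ HSCs as Eif4ebp2 was, at 590 in GFP+ HSCs, 916 in GFP- HSCs and 977 in MPPs, and was named after its value was seen. Eif2ak2, which the name rule left out, stood at 879 in GFP+ HSCs, 1004 in GFP- HSCs and 1031 in MPPs.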
